A study of Macaca fascicularis with 10 samples.

Results

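GPR17 and PDGFRA, genes known as markers of oligodendrocyte precursor cells, are 2 of the 7229 genes with allelic read counts in the dorsal raphe nucleus of cynomolgus macaques (Macaca fascicularis). They were chosen by name, as a pair from 1 lineage whose paternal shares spread widely (GPR17) and narrowly (PDGFRA) between animals. That contrast was known beforehand, so the spread of each gene is described here with no test. RNA came from 10 female macaques in 1 group, all daughters whose mother and father the labels name, with no treatment and no genetic change in the labels, which give no age. For every daughter the table holds the reads of each gene assigned to the paternal and to the maternal allele. The daughters were separate animals with 1 library each, and they are numbered 1 to 10 as their labels are ordered. Titles carry 2 prefixes, 10480 (daughters 7 to 10) and 10203 (daughters 1 to 6), whose meaning the labels do not give.

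Oligodendrocyte precursors divide throughout the brain and give rise to the myelinating oligodendrocytes. PDGFRA encodes the tyrosine kinase receptor for platelet-derived growth factor A, which in rodents keeps precursors alive and dividing and is lost as they mature. GPR17 encodes a G protein-coupled receptor related to the purine and cysteinyl leukotriene receptors. In rodents it appears for a short time in precursors that have begun to differentiate, and it holds back myelination. A heterozygous position within a transcript lets a read be assigned to 1 parent, and the paternal share is the percent of those reads that fell in the paternal column. Equal use of both alleles gives 50%.

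The depth ran from 30090 allelic reads for daughter 1 to 999471 for daughter 6, and neither gene had a value in daughter 1. Of 11 serotonin neuron markers of the raphe 7 were in the table, among them TPH2, the enzyme of brain serotonin synthesis. TPH2 had 9561 allelic reads over 7 daughters, 5409 of them in 1 daughter. Of the 20 precursor markers 8 were in the table, and of the 18 markers of myelinating oligodendrocytes 9 were. Whether the paternal column holds the father's allele was read from DLK1 and MEST, imprinted genes expressed from the paternal copy. With 20 or more reads they lay on the paternal side in daughters 3, 4, 5 and 10 and on the maternal side in daughter 6, where DLK1 had 1.74% of 115 reads and MEST 3.09% of 162 in the paternal column. The other 5 daughters could not be read this way. Shares are therefore given as the columns are labelled, and distances from 50%, which do not depend on which column is which parent, stand beside them.

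GPR17 was measured in 9 daughters, and its alleles were used very unequally in some of them. It had 1 paternal and 16 maternal reads in daughter 3, a paternal share of 5.88% (95% Wilson interval 1.05 to 27.0). In daughter 9 it had 8 paternal and 24 maternal reads, a share of 25% (13.3 to 42.1). In daughter 2 the reads were 41 and 63, a share of 39.4% (30.6 to 49.0). These 3 daughters lay on the maternal side with intervals that left out 50%. The widest shift to the other side was in daughter 8, with 14 paternal and 3 maternal reads, a share of 82.4% (59.0 to 93.8). Daughter 7 had 9 paternal and 4 maternal reads, or 69.2% (42.4 to 87.3), and daughter 10 had 7 and 5, or 58.3% (32.0 to 80.7). In daughters 7 and 10, with few reads, the intervals included 50%. Daughters 4, 5 and 6 lay closer to balance with more reads, at 31 and 32 reads (49.2%, 37.3 to 61.2), 111 and 97 reads (53.4%, 46.6 to 60.0) and 65 and 46 reads (58.6%, 49.3 to 67.3). Intervals cover counting error only, with 1 library per daughter. They treat reads as independent, and since sequenced reads are not independent molecules they may be too narrow.

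PDGFRA was measured in 7 daughters, with a value in neither daughter 6 nor daughter 7, and stayed between 37.4% and 61.1%. Its lowest share was in daughter 9, with 76 paternal and 127 maternal reads, or 37.4% (31.1 to 44.3). Its highest was in daughter 10, with 77 and 49 reads, or 61.1% (52.4 to 69.2). Daughter 3 had 272 and 202 reads, or 57.4% (52.9 to 61.8). In these 3 daughters the interval left out 50%, with shifts much smaller than the widest of GPR17. Daughter 2 had 229 paternal and 268 maternal reads (46.1%, 41.7 to 50.5) and daughter 8 had 76 and 62 (55.1%, 46.7 to 63.1). Daughter 4 had 25 and 28 reads (47.2%, 34.4 to 60.3) and daughter 5 had 34 and 27 (55.7%, 43.3 to 67.5). These 4 intervals included 50%.

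**Figure D1:**
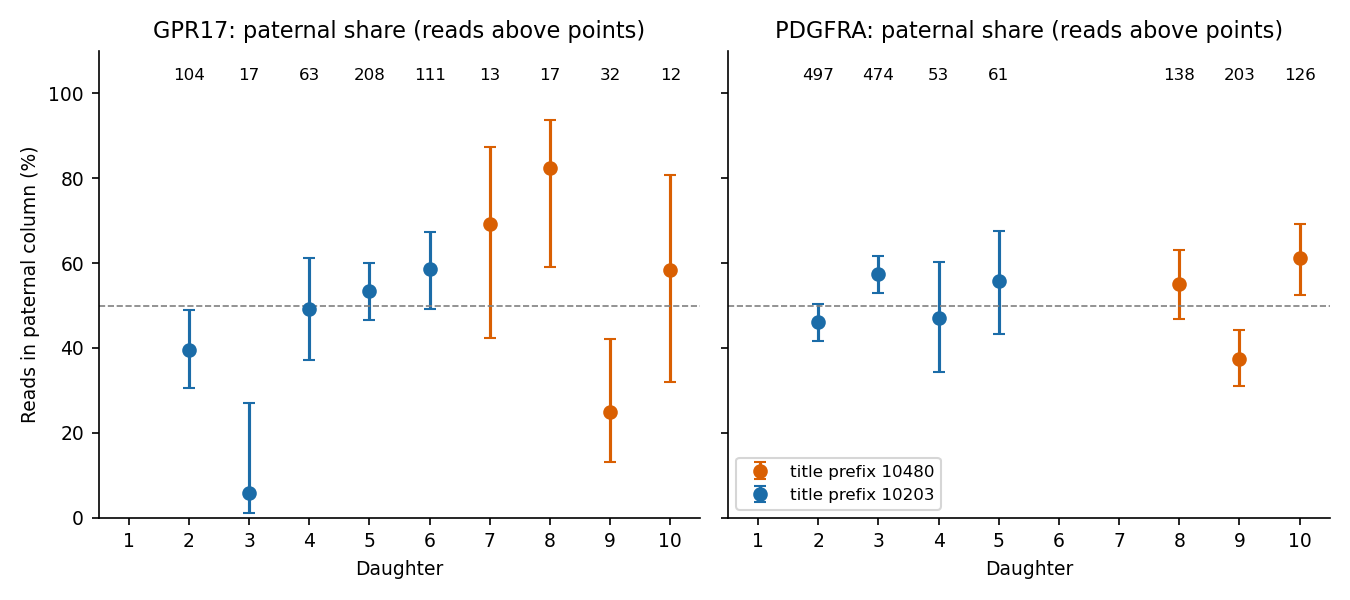
Paternal share in percent of allelic reads (vertical axis) by daughter (horizontal axis) for GPR17 (left) and PDGFRA (right), with 95% Wilson intervals, the dashed line at 50%, colours for title prefix and the number of reads above each point. GPR17 runs from 5.88% to 82.4% with its widest shares in daughters with 32 or fewer reads, and PDGFRA runs from 37.4% to 61.1%.

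Set against other genes, intervals that leave out 50% were common for both. They did so in 4 of 9 daughters for GPR17 and in 3 of 7 for PDGFRA, while 20.1% did among all 27887 gene-by-daughter measurements resting on 10 or more reads. These are 44.4% of the daughters for GPR17 and 42.9% for PDGFRA, close to each other. At 50 or more reads, where 25.3% of all measurements left out 50%, GPR17 did in 1 of 4 daughters, near that share, and PDGFRA in 3 of 7. At 10 to 49 reads, where 14.3% did, GPR17 did in 3 of 5, and PDGFRA had no such daughter. With 99% intervals 3 of 9 for GPR17 and 2 of 7 for PDGFRA remained, beside 11.3% of all measurements.

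The widest GPR17 values were ranked within their own daughters, over genes of all read numbers. GPR17 was chosen for its wide spread, so these ranks are description and no support. Its distance from 50% was 44.1 percentage points in daughter 3, where 98.99% of 3062 genes lay closer to balance. In daughter 8 it was 32.4 points, with 97.1% of 2346 genes closer, and in daughter 9 it was 25 points, with 93.3% of 2484 genes closer. Few reads make such distances more likely, and the 3 daughters had 17, 17 and 32 reads of GPR17. Over all measurements with 10 to 49 reads the median distance was 9.09 points. In daughter 4 GPR17 lay 0.794 points from 50%, nearer than most genes, with 9.30% closer. For PDGFRA between 27.1% of genes (daughter 4) and 75.3% (daughter 9) lay closer to balance, counted over genes of all read numbers. PDGFRA had more reads than most genes in every daughter in which it was measured. Its distances of 12.6 points in daughter 9 and 11.1 in daughter 10 stand beside a median of 4.46 over all measurements with 50 or more reads.

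The spread between daughters was 2.81 times as large for GPR17 as for PDGFRA, and reads were fewer. The paternal share averaged 49.0% ± 23.0 for GPR17 (SD, n = 9) and 51.4% ± 8.20 for PDGFRA (SD, n = 7). The median distance from 50% was 10.6 points for GPR17 and 5.74 points for PDGFRA. An exchange of the columns of a daughter would change the SD and leave the distance as it is, and without daughter 6 the SD of GPR17 was 24.3. Among the 2981 genes whose counts reached 10 reads in at least 5 daughters, 96.6% had a smaller SD than GPR17 and 39.6% a smaller SD than PDGFRA, with a median of 9.53 points. GPR17 had a median of 32 reads per daughter (12 to 208) and PDGFRA 138 (53 to 497).

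Counting error alone, computed from these read numbers, would give an SD of 9.84 points for GPR17 and 4.61 for PDGFRA. Taking that out of the observed variance leaves 20.8 points for GPR17 and 6.78 for PDGFRA, larger than in 95.9% and 56.0% of genes. The dispersion ratio gave another order. It is the chi-square of the daughters' counts around the gene's pooled share, divided by its degrees of freedom, and is 1 when counting error is the whole spread. It was 4.93 for GPR17 and 5.73 for PDGFRA, against a median of 2.01 over all genes, and 81.7% and 84.4% of genes had smaller ratios. This ratio gives weight to deeply read daughters, and for a given spread beyond counting error it grows with the number of reads. PDGFRA had a median of 138 reads per daughter and GPR17 had 32. The order of the ratios therefore does not show which gene was more dispersed. Daughter 9 carried much of the PDGFRA ratio, which was 3.54 without it.

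**Figure D2:**
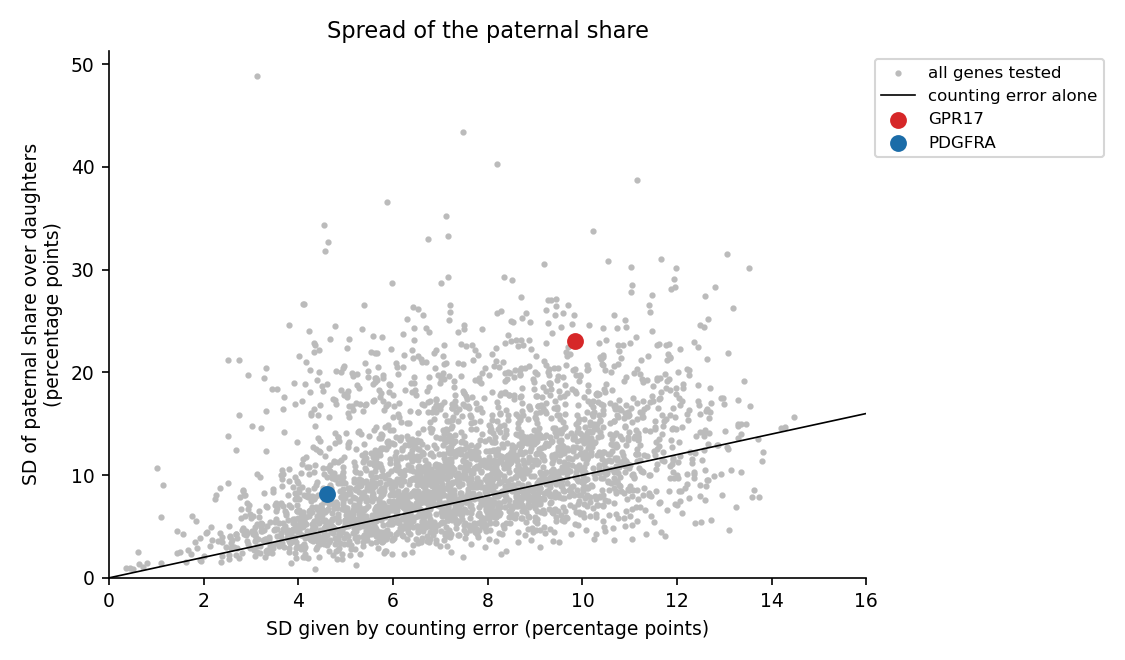
SD of the paternal share over daughters (vertical axis, percentage points) against the SD that counting error alone would give (horizontal axis, percentage points), 1 point for each of the 2981 genes, with the line where both are equal. GPR17 lies at 23.0 against 9.84 and PDGFRA at 8.20 against 4.61, both above the line.

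The contrast between the genes was found in daughters with few GPR17 reads. In the 4 daughters with 50 or more reads, GPR17 had shares of 39.4% to 58.6% and an SD of 8.10, and PDGFRA, which had 53 or more reads in all 7 of its daughters, had 8.20. In the 5 daughters with 12 to 32 reads GPR17 had an SD of 31.8. Among all genes the median distance from 50% was 9.09 points at 10 to 49 reads and 4.46 points at 50 or more. The GPR17 medians in these classes were 25 points and 5.96 points, and that of PDGFRA at 50 or more reads was 5.74 points. Whether GPR17 would be as wide in the shallow daughters at greater depth was not tested.

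**Figure D3:**
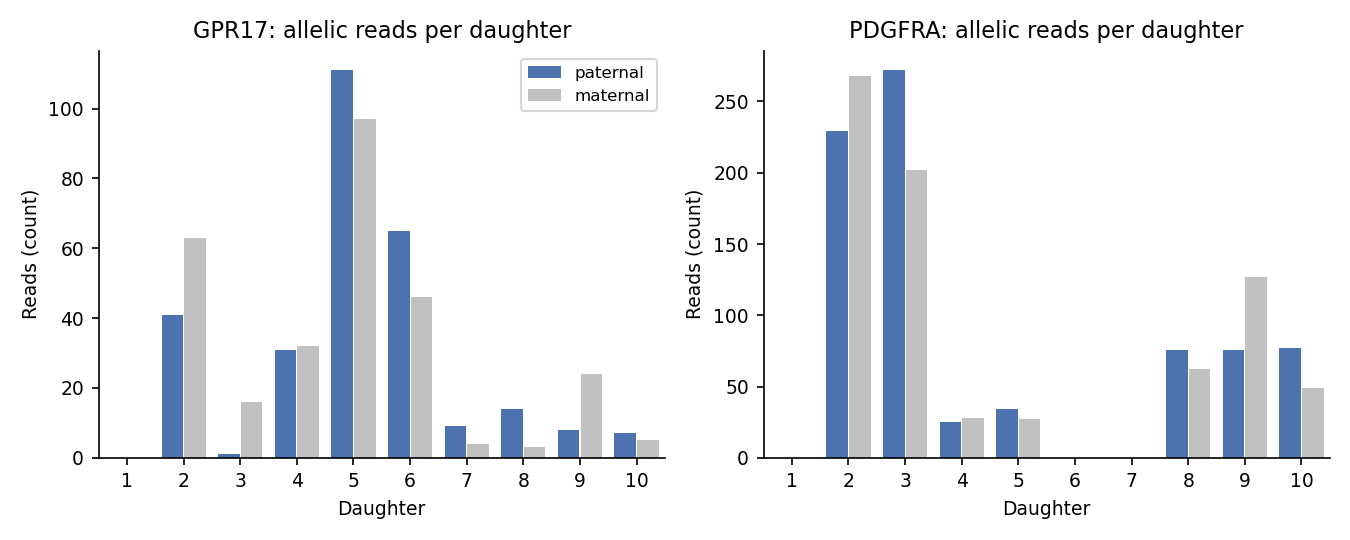
Allelic reads (vertical axis, counts) in the paternal (blue) and maternal (grey) column by daughter (horizontal axis) for GPR17 (left) and PDGFRA (right). GPR17 reaches 111 paternal reads in daughter 5 and 1 in daughter 3, and PDGFRA reaches 272 paternal reads in daughter 3.

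Read numbers of the genes did not run in parallel. As CPM, the count per 1000000 allelic reads of the same animal, GPR17 ran from 24.1 (daughter 10) to 226.7 (daughter 5), and PDGFRA from 63.1 (daughter 4) to 908.3 (daughter 2). In daughter 3 GPR17 had 26.2 CPM and PDGFRA 729.6 CPM. These levels follow how many informative positions a daughter carries as well as expression, so they are not levels of the transcripts. In tissue RNA, fewer cells of a type and less RNA per cell cannot be told apart either.

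Paternal and maternal CPM were positively correlated across daughters, as in most genes. Both columns of a daughter share the number of informative positions, so a positive r is largely built in and says little about either gene. For PDGFRA, Pearson's r between paternal and maternal CPM was 0.891 and Spearman's rho 0.893 over 7 daughters (exact permutation p = 0.00516 and 0.0123, two-sided, with r at 0.0146 after Benjamini-Hochberg adjustment over 2319 genes). For GPR17, r was 0.767 and rho 0.55 over 9 daughters (exact permutation p = 0.0167 and 0.133, r at 0.0321 adjusted). Of all 2319 genes 59.3% passed with r above 0, and the median r was 0.848. Without daughters 2 and 5, those farthest from the median maternal level for both genes, r was 0.793 for PDGFRA over 5 daughters (exact permutation p = 0.0917) and 0.223 for GPR17 over 7 (exact permutation p = 0.627), so the GPR17 relation rests on these 2. Leaving out daughter 5 alone took GPR17 to r = 0.639 (exact permutation p = 0.0849). Within title prefixes neither gene had the 6 daughters needed.

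Neither gene was called for a parental side over the daughters, with the columns used as labelled. In edgeR's quasi-likelihood test with the daughter as block, fitted on all 2981 genes, the paternal over maternal log2 ratio was -0.10 ± 0.36 for GPR17 and 0.08 ± 0.17 for PDGFRA (SE, adjusted p = 1 for both). Among all 2981 genes 0 (0%) passed. An unadjusted p under 0.05 was reached by 93 of them with edgeR and by 62 with DESeq2, which also called 0. The imprinted gene DLK1 was not called either, at a log2 ratio of 2.68 ± 1.81 (SE, edgeR unadjusted p = 0.186). It lay on the maternal side in daughter 6. The absence of a call therefore does not exclude a parental bias of GPR17 or PDGFRA. GPR17 lay on the paternal side in 5 of 9 daughters and PDGFRA in 4 of 7. Daughter 1, and for PDGFRA daughters 6 and 7, had no value and entered the fit as counts of 0, which add nothing to the ratio. In the 4 daughters whose imprinted genes lay on the paternal side, GPR17 averaged 41.7% ± 24.2 and PDGFRA 55.4% ± 5.90 (SD, n = 4 each), with log2 ratios of -0.32 ± 0.53 and 0.34 ± 0.17 (SE, edgeR adjusted p = 1 for both). Of these daughters, daughter 3 had a GPR17 share of 5.88% from 17 reads, and daughters 4, 5 and 10 had 49.2%, 53.4% and 58.3%. Without daughter 6, where the imprinted genes lay on the maternal side, the ratios were -0.21 for GPR17 and 0.08 for PDGFRA.

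GPR17 and PDGFRA shared a side in most daughters in which both were measured. Both lay above 50% in daughters 5, 8 and 10 and below it in daughters 2, 4 and 9, while in daughter 3 GPR17 had 5.88% and PDGFRA 57.4%. That is 6 of 7 daughters on the same side. The intervals of both genes left out 50% only in daughters 3 and 9, on opposite sides in daughter 3 and on the same side in daughter 9. In the other daughters the side of at least 1 gene is uncertain. GPR17 lay farther from 50% than PDGFRA in 4 of 7, by most in daughters 3, 8 and 9. Pearson's r between their shares was 0.298 and Spearman's rho 0.321 over the 7 daughters (exact permutation p = 0.511 and 0.498, two-sided, both 0.511 adjusted over the 2). Leaving out each of the other 6 daughters in turn gave r from 0.0497 to 0.326 (exact permutation p from 0.525 to 0.947). Without daughter 3, the 1 daughter with the genes on opposite sides, r was 0.769 over 6 daughters (exact permutation p = 0.0583), and without daughters 3 and 8, farthest from the median GPR17 share, it was 0.945 over 5. Leaving out the discordant daughter has to raise r, so these values are no support for a relation. This relation was examined after the values were seen, and neither prefix holds enough daughters to repeat it.

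By title prefix, GPR17 averaged 58.7% ± 24.5 in prefix 10480 (SD, n = 4) and 41.3% ± 21.0 in prefix 10203 (SD, n = 5). These means weigh each daughter alike, and with the reads of a prefix pooled the GPR17 share was 51.4% in 10480 and 49.5% in 10203. PDGFRA averaged 51.2% ± 12.3 in prefix 10480 (SD, n = 3) and 51.6% ± 5.79 in prefix 10203 (SD, n = 4). The difference in log2 ratio, prefix 10480 minus prefix 10203, was 0.56 ± 0.81 for GPR17 and -0.04 ± 0.36 for PDGFRA (SE, edgeR adjusted p = 1 for both), where 0.0335% of all genes passed. DESeq2 gave 0.93 ± 0.89 for GPR17 and -0.04 ± 0.44 for PDGFRA (SE, DESeq2 adjusted p = 1.0 for both), with 0 genes called and 71 at an unadjusted p under 0.05. Wide GPR17 shares occurred in both prefixes, in daughters 8 and 9 of 10480 and in daughter 3 of 10203. The reads differed: GPR17 had a median of 15 reads in prefix 10480 and 104 in prefix 10203.

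Some daughters share a parent by their labels. For GPR17, daughters 7 and 8 had 1 father in common and shares of 69.2% and 82.4%. Another father was common to daughters 4 and 5, at 49.2% and 53.4%, and 1 mother to daughters 6 and 10, at 58.6% and 58.3%. The difference within these 3 pairs ranged from 0.225 to 13.1 points, and in the other 33 pairs it ranged from 4.97 to 76.5 points with a median of 24.2. The lowest of these depends on the column labels of daughter 6, in doubt as given above: with its columns exchanged, daughter 6 had 41.4% and differed from daughter 10 by 16.9 points. The 3 pairs then ranged from 4.16 to 16.9 points, and the other 33 from 2.02 to 76.5 with a median of 27.8. For PDGFRA there was 1 such pair, daughters 4 and 5, with 47.2% and 55.7%, a difference of 8.57 points beside a median of 9.33 in the other 20 pairs. Daughters 7, 8 and 10 had 13, 17 and 12 reads of GPR17, so differences in pairs that hold them carry wide counting error. Pairs share daughters and the comparison was made after the values were seen, so it was not tested.

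Other genes of the precursors had a smaller SD than GPR17. Besides GPR17 and PDGFRA, 4 of the 20 precursor markers had enough reads to be tested. PTPRZ1, a receptor tyrosine phosphatase, had a paternal share of 49.5% ± 3.13 over 10 daughters (44.5% to 53.1%), and PCDH15, a cadherin, had 51.3% ± 6.83 over 8. BCAS1, a marker of early myelinating cells, had 53.8% ± 7.08 over 10 (SD in each case). These genes had more reads, with medians per daughter of 887.5 for PTPRZ1, 77 for PCDH15 and 374 for BCAS1, against 32 for GPR17. Their dispersion ratios were 3.72, 1.30 and 4.06 in that order, against 4.93 for GPR17. LUZP2 was wide with many reads: 53.3% ± 14.2 (SD, n = 10), with 25.2% (916 reads) in daughter 2, 71.4% (1045 reads) in daughter 3 and 75.2% (412 reads) in daughter 9. Its dispersion ratio was 60.1, above those of GPR17 and PDGFRA, with a median of 612 reads per daughter. Since that ratio grows with reads, it does not compare spread alone. Of the 6 precursor markers 0 were called by edgeR (0 at an unadjusted p under 0.05), with a median log2 ratio of 0.06 beside -0.01 over all 2981 genes.

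Among the 6 measurable genes of myelinating oligodendrocytes, 5 had an SD below the median of all genes and 1 had an SD above that of GPR17. ASPA, which encodes the enzyme that splits N-acetylaspartate, had 44.5% ± 25.1 (SD, n = 6), and ran from 1.18% (85 reads, daughter 10) to 72% (25 reads, daughter 8). ERMN, a cytoskeletal protein of myelin, had 51.0% ± 4.0 (SD, n = 6), ENPP2 50.4% ± 4.91 (SD, n = 8), GPR37 55.4% ± 5.73 (SD, n = 5), ST18 51.2% ± 7.26 (SD, n = 7) and the myelin gene regulator MYRF 44.5% ± 8.95 (SD, n = 7). The median SD was 6.49 points in this list, beside 9.53 over all genes. It was 7.64 in the precursor list with GPR17 and PDGFRA, and 6.96 over its 4 other genes. Of these 6 genes 0 were called by edgeR (0 at an unadjusted p under 0.05).

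**Figure D4:**
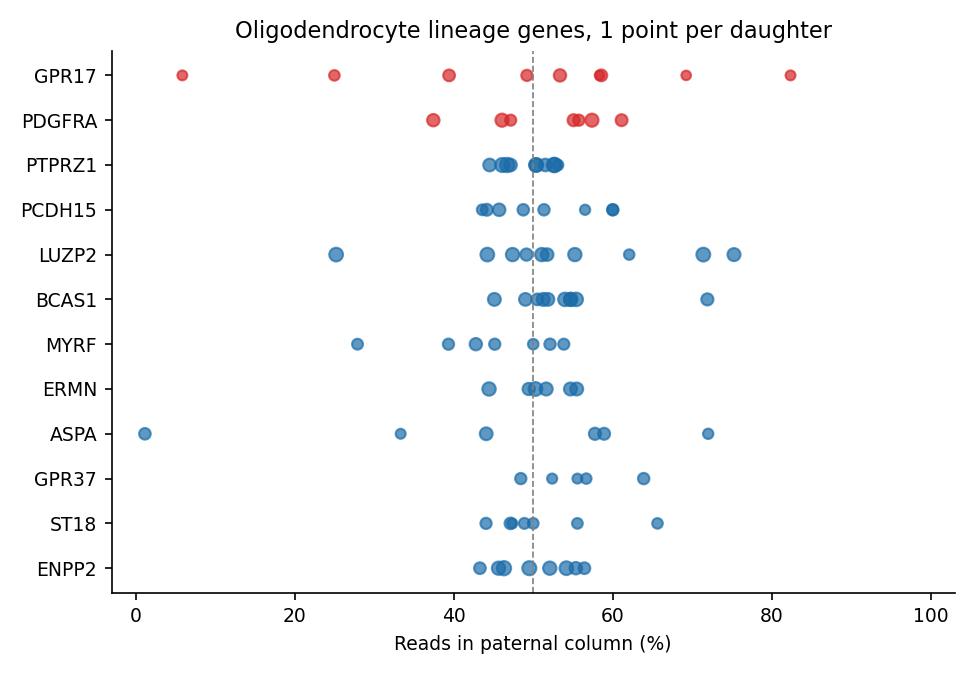
Paternal share in percent (horizontal axis) of the precursor and myelin genes tested (rows), 1 point per daughter with at least 10 reads, larger points for more reads, the dashed line at 50%. GPR17 (5.88% to 82.4%), LUZP2 (25.2% to 75.2%) and ASPA (1.18% to 72%) are wide, and PTPRZ1 (44.5% to 53.1%) is narrow.

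Around PDGFRA in its pathway, 13 of 21 listed ligands, receptors and signal carriers were in the table and 6 could be tested, PDGFRA included, with 0 called and 0 at an unadjusted p under 0.05 by edgeR. The ligand genes PDGFB and PDGFC had too few reads. The ubiquitin ligase CBL, which marks activated receptors for breakdown, had 51.0% ± 4.70 (SD, n = 7), the phospholipase PLCG1 53.1% ± 7.78 (SD, n = 7) and the transcription factor STAT3 49.4% ± 5.60 (SD, n = 7). The endocytic receptor LRP1 had 50.2% ± 5.06 (SD, n = 10). The kinase SRC was wider, at 63.0% ± 17.0 (SD, n = 6) with as few as 10 reads in a daughter.

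Around GPR17, 3 of the 15 listed receptor relatives were in the table and 2 could be tested, GPR17 itself and P2RY11, an ATP receptor. P2RY11 had 46.1% ± 25.2 (SD, n = 5). It had 1.47% of 68 reads in daughter 4, and the other 4 daughters lay between 52.7% and 62.7%. Of 18 genes listed for GPR17 signalling in precursors 5 could be tested, GPR17 included, and 0 were called by edgeR, with 1 at an unadjusted p under 0.05. That was the adenylyl cyclase gene ADCY1, at 56.1% ± 6.10 (SD, n = 9). TCF7L2, a transcription factor of differentiating precursors, had 50.5% ± 6.58 (SD, n = 6), the receptor kinase GRK5 46.3% ± 7.03 (SD, n = 7) and ADRBK1, the kinase also called GRK2, 48.6% ± 5.18 (SD, n = 5).

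Neighbouring genes lie on the same parental chromosomes, and those of GPR17 were mixed, some narrow and some about as wide as GPR17. In the RefSeq gene order of the assembly T2T-MFA8v1.1, GPR17 overlaps LIMS2, which had no row in the table used here. The library kit keeps strand, but no source used here says whether the counting used it, so reads from the overlap may be shared. UGGT1 was narrow, at 51.2% ± 5.02 (SD, n = 10), and lay near balance where GPR17 was widest, at 47.9% (daughter 3, 144 reads), 48.9% (daughter 8, 264 reads) and 50.8% (daughter 9, 250 reads). IWS1 was narrow too, at 47.6% ± 7.26 (SD, n = 8), with 50% in daughters 8 and 9. WDR33, the nearest gene before GPR17 with a row, had 58.0% ± 20.5 (SD, n = 7) and lay on GPR17's side in 5 of 7 shared daughters, with 100% (50 reads) in daughter 6. PROC, which encodes the anticoagulant protein C, had 64% ± 25.1 (SD, n = 4) and lay on that side in 4 of 4, with 12 to 25 reads. SAP130 had 41.4% ± 16.9 (SD, n = 6; 4 of 6 on that side) and MAP3K2 49.5% ± 15.98 (SD, n = 3; 1 of 3). SAP130 had 31.8% (22 reads) in daughter 3 and 14.3% (14 reads) in daughter 9, the low side on which GPR17 lay. In daughter 3, however, MAP3K2 had 59.4% (143 reads) and AMMECR1L, another of the nearest genes, 72.2% (18 reads), opposite GPR17. WDR33 had 63.5% (85 reads) in daughter 8, the high side, but 53.0% (66 reads) in daughter 9. Over the 8 nearest genes with a row, GPR17 shared its side in 19 and differed in 16 of 38 paired measurements with 10 or more reads in both genes, the rest lying at exactly 50%.

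PDGFRA's neighbour KIT, which encodes another receptor kinase of the same family, had a like spread, at 50.6% ± 7.80 (SD, n = 9). It had 44.2% of 163 reads in daughter 9, where PDGFRA had 37.4%, and 62.8% of 94 in daughter 5 and 62.9% of 89 in daughter 8, where PDGFRA had 55.7% and 55.1%. In daughter 2 both lay below 50%, KIT at 48.8% (43 reads). The genes parted in daughter 3, with KIT at 40% (25 reads) and PDGFRA at 57.4%, and in daughter 4, with KIT at 50.5% (184 reads) and PDGFRA at 47.2%. KIT lay at exactly 50% (46 reads) in daughter 10, where PDGFRA had 61.1%. That is 4 of 7 shared daughters on the same side and 2 on opposite sides. KDR, a receptor for vascular endothelial growth factor, had 47.1% ± 11.5 (SD, n = 7), and LNX1, a ubiquitin ligase on the other side, 45.7% ± 2.02 (SD, n = 5). PDGFRA shared its side with its neighbours in 15 and differed in 10 of 27 paired measurements. Beyond LNX1 the next genes with a row, SPATA18, SGCB and LRRC66, lie 21 or more genes away.

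**Figure D5:**
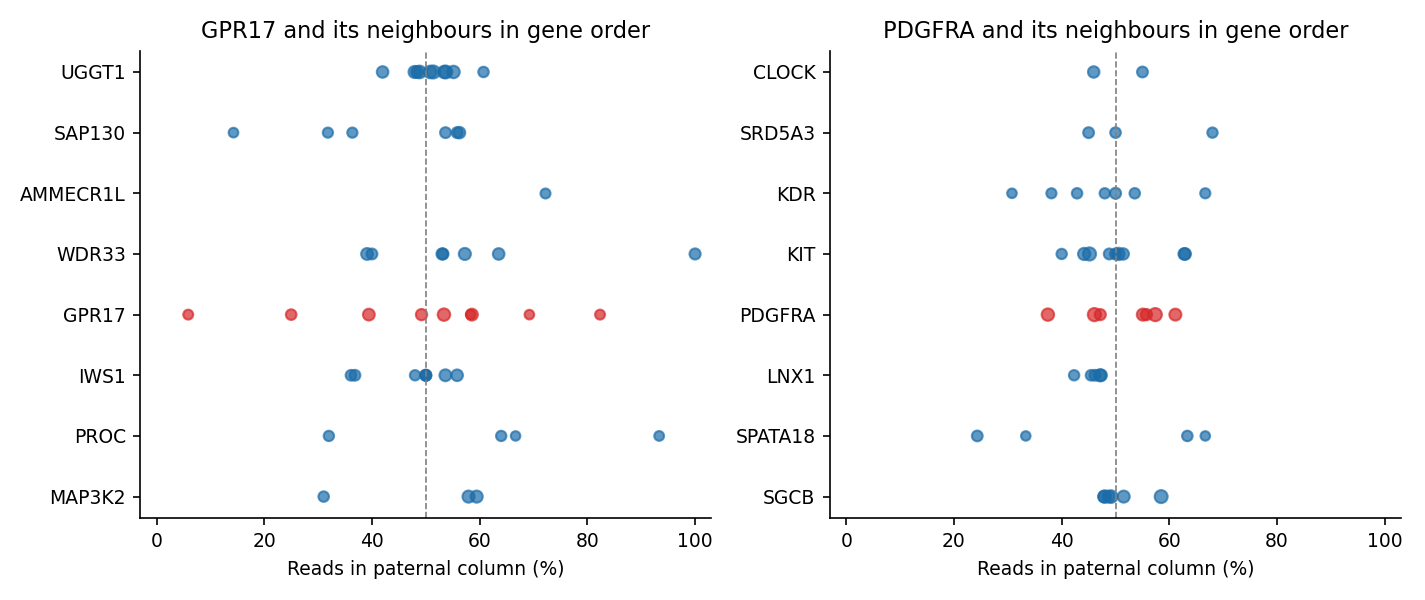
Paternal share in percent (horizontal axis) of GPR17 (left) and PDGFRA (right), in red, and of up to 4 nearest genes on each side, in blue, in gene order (rows), 1 point per daughter. UGGT1 stays between 42.0% and 60.7% while GPR17 spans 5.88% to 82.4%, and KIT spans 40% to 62.9% beside PDGFRA at 37.4% to 61.1%.

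The genes most like each in the pattern of paternal shares were found by Pearson's r over all daughters with 10 or more reads. For GPR17, among 492 genes over 9 daughters, these included SCN9A (r = 0.783) and ZNF236 (0.763). For PDGFRA, among 654 genes over 7 daughters, they were STK11IP (0.944), HYDIN (0.941) and GPATCH1 (0.930). With so few daughters such values arise readily: 5% of genes had r above 0.565 for GPR17 and above 0.672 for PDGFRA, and the lowest were -0.885 and -0.902. They describe these daughters only, and daughters' shares carry the counting error given above.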

How the data were processed

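The samples were total RNA of the dorsal raphe nucleus. Libraries were stranded and depleted of ribosomal RNA, and were read as pairs with 101 cycles, per the labels' protocols. Novoalign is named in the submitters' processing notes, and the build macFas5 per the file headers. Phasing, position filters and the counter are not stated in any source used here. The authors deposited whole-number counts per gene in a paternal and a maternal column for each daughter, 20 columns, which were matched by title. Redundant genes were summed, per the name of the deposited counts.

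Shares used daughters with 10 or more reads, and single shares carry 95% Wilson intervals. GPR17 and PDGFRA, the gene lists and the tests were chosen with earlier results of these data known. A robust quasi-likelihood fit in edgeR 4.0.16 (R 4.3.3) compared the paternal with the maternal columns. The daughter was the block, since both columns come from 1 animal, library size was summed over both columns and missing values entered as 0. Adjustment was by Benjamini-Hochberg at 0.05, and DESeq2 1.42.0 was the other tool. CPM is per 1000000 allelic reads of a daughter. Permutation tests were exact under 10 daughters and used 100000 permutations at 10. The tests were tried on simulated data. Named genes were members of the lists, up to 4 nearest genes on each side and the 3 genes most like each, of which 1 is not reported here. Neighbours came by symbol from the RefSeq gene table of T2T-MFA8v1.1, which matched 6566 of 7229 symbols. Other software was Python 3.11.15 with SciPy 1.17.1, pandas 2.3.3, NumPy 2.4.6 and matplotlib 3.10.9. Sequences of both genes were not used here.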

Additional observations from a re-analysis of the deposited data

Results flagged for a closer look

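Each of 38 genes described here was examined for a daughter far from the others, and 4 had one; such a daughter appears by chance in about 1 in 20 groups. GPR17 and PDGFRA had none. BCAS1 had a paternal share of 71.9% of 153 reads in daughter 5 (95% Wilson interval 64.3 to 78.4), against 45.1% to 55.4% in the other 9 daughters. P2RY11 had 1.47% of 68 reads in daughter 4 (0.260 to 7.87), against 52.7% to 62.7% in the other 4. WDR33, near GPR17, had all 50 reads in the paternal column in daughter 6, a share of 100% (92.9 to 100), against 39.1% to 63.5% in the other 6, while GPR17 had 58.6% there. SGCB, beyond LNX1 from PDGFRA, had 58.5% of 366 reads in daughter 6 (53.4 to 63.4), against 47.8% to 51.5% in the other 5.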

How the results depend on the processing

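The SD of GPR17 was 13.3 points over 5 daughters with 20 or more reads and 8.10 over 4 with 50 or more, against 23.0 reported, and its dispersion ratio was 2.89 with 50 or more reads; these alternatives hold fewer daughters. For PDGFRA, only prefix 10480 gave an SD of 12.3, a dispersion ratio of 10.1 and a median distance of 11.1 points, and only prefix 10203 an SD of 5.79. Without each daughter in turn, the SD ranged from 17.5 to 24.6 for GPR17 and from 5.92 to 8.81 for PDGFRA, the dispersion ratio from 3.71 to 5.64 and from 3.54 to 6.82, and the median distance from 9.57 to 14.9 and from 5.41 to 6.56. A move was counted when it exceeded the jackknife error of the SD or ratio, or the SD over daughters of the distance.

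The log2 ratio of GPR17 was 0.33 in prefix 10480 alone, 0.11 without daughter 3 and 0.07 without daughter 9, against -0.10 reported, with a range of -0.26 to 0.11 over daughters left out; that of PDGFRA was -0.018 without daughter 10, with a range of -0.018 to 0.22. None passed, and without a replicate block the ratios were -0.05 for GPR17 and 0.01 for PDGFRA. Genes called numbered 2 without the read filter, 1 in prefix 10480, 2 in the daughters with imprinted genes on the paternal side, and 0 to 1 without each daughter (1 without daughter 4); none was GPR17 or PDGFRA. The prefix difference called 1 gene with edgeR and 0 with DESeq2. The correlation of GPR17's alleles was 0.454 on log2 CPM plus 1 (exact permutation p = 0.224) and 0.223 without the 2 daughters farthest from the median; that of PDGFRA was 0.793 there. Without each daughter it ranged from 0.639 to 0.827 for GPR17 and from 0.841 to 0.942 for PDGFRA. The cause of these changes was not tested. Of 179 alternatives 157 kept their direction and side of the threshold, or moved less than the error. This count does not measure stability, since some alternatives could not move. A minimum of 1 read kept the same daughters for both genes. For the GPR17 median distance the error, 14.5 points, was larger than the distance, 10.6 points. The correlation within prefix 10203 was not run, with fewer than 6 daughters.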

Other observations

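Cells other than precursors can carry PDGFRA, fibroblasts and vessel-associated cells among them. Of 15 markers of such cells and of vessels, 6 were in the table and 5 could be tested, with 0 called and 0 at an unadjusted p under 0.05 by edgeR. COL3A1, a fibrillar collagen of fibroblasts, had a paternal share of 51.6% ± 13.4 (SD, n = 7), ACTA2, the actin of smooth muscle, 43.5% ± 8.58 (SD, n = 6) and PECAM1, an endothelial adhesion protein, 49.9% ± 7.92 (SD, n = 6). Of the 15 listed markers of astrocytes and microglia 0 had a row in the table used here. Which cells the PDGFRA reads came from was not tested. Of 11 raphe markers 2 could be tested, with 0 called and 0 at an unadjusted p under 0.05 by edgeR, and TPH2 had 49.5% ± 3.55 (SD, n = 7), narrower than both GPR17 and PDGFRA.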
